A study of Mus musculus with 6 samples.

Results

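The collagen chain genes were taken as every row of the expression table whose gene symbol has the form of a collagen chain (Col, a collagen type number, the letter a and a chain number). This gave 43 genes of the 38087 in the table. Of these, 35 lay above the floor of the table in at least 3 of the 6 libraries and were tested, and 29 lay above it in all 6. The other 8 were not tested: Col9a1, Col6a5 and Col6a6 were listed at 0 in every library, and the other 5 (Col19a1, Col22a1, Col9a2, Col4a4 and Col25a1) lay above 0 in only 1 or 2. A member that passed only through the group in which it was higher would have entered in the same way, so counts over the 35 describe tested members and not the family as a whole.

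RNA was sequenced from 3 libraries of bone marrow-derived macrophages exposed to 10 nM resolvin D1 (RvD1) for 6 h and from 3 libraries left untreated, all from male C57BL/6J mice with no engineered allele named. RvD1 is a lipid mediator made from docosahexaenoic acid, and its receptor ALX/FPR2 in myeloid cells is the subject of the series. In both groups marrow from mice 8 to 10 weeks old (2 to 4 months in another label) was cultured with M-CSF (macrophage colony-stimulating factor) at 10 ng/ml over 7 days, then re-plated without it for 24 h. No vehicle is described for the untreated cultures, and nothing states that replicate libraries stem from different animals or dishes, so a p-value here sets the difference against library spread alone, possibly technical spread.

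Collagens are secreted proteins in which 3 alpha chains wind around each other in a triple helix, and each chain has a gene of its own. Fibrillar collagens form the banded fibrils of connective tissue and cartilage, network-forming types build basement membranes and related sheets, type VI forms beaded microfilaments, and the FACIT types attach to the surface of fibrils. Multiplexins carry anti-angiogenic C-terminal fragments, and a few types span the cell membrane. Fibroblasts, bone cells and other stromal cells are the best known sources, while macrophages are known mostly for taking collagen up and for making selected types.

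The values are log2 normalized reads as deposited, and 0 is the floor, a normalized read number of 1 or less. Estimated depth was 11.2 to 16.3 M reads in the RvD1 libraries and 9.05 to 14.3 M in the untreated libraries. All 8 macrophage markers were present, with summed normalized reads of 102493 to 131569 in RvD1 and 98473 to 128069 in untreated libraries. All 12 mesenchymal markers were present as well, summing to 40445 to 52658 in RvD1 and 38185 to 44772 in untreated libraries, and the lowest of them, Lum, was at 0 in RvD1 replicate 2 and untreated replicates 2 and 3. Of the skeletal markers 6 of 8 lay above 0 in at least 3 libraries, with Acan and Bglap each above 0 in a single library, and the list summed to 706 to 1087 in RvD1 and 621 to 802 in untreated libraries. The 8 endothelial markers summed to 790 to 1600 in RvD1 and 787 to 937 in untreated libraries, and the 6 granulocyte markers to 3992 to 10463 in RvD1 and 3201 to 11177 in untreated libraries. In bulk RNA of this kind, a different number of cells of one type and a different amount of RNA per cell cannot be told apart.

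Across the collagen chains no gene passed the test for RvD1 against untreated. Of the 35 tested chains 0 passed (limma, Benjamini-Hochberg adjusted over all 18899 tested genes), where 1.12% of all tested genes passed (0.561% higher and 0.556% lower), and the adjusted p-values ran between 0.0628 and 0.991. At an unadjusted limma p under 0.05 there were 3 chains higher and 0 lower with RvD1, or 8.57% of the tested chains against 19.9% of all tested genes (10.3% higher and 9.65% lower). The same 3 chains, Col27a1, Col12a1 and Col8a2, were the ones whose groups did not overlap, again 8.57% against 25.4% of all tested genes (12.6% higher and 12.8% lower). The last 2 shares count the same 3 chains, and with 35 genes a count of 0 cannot be told from a share of 1.12%. Chains with a mean log2 level of at least 5 also had larger standard errors than all tested genes there (median 0.16 against 0.09). The lower shares therefore do not show a smaller response. The direction was uneven: 28 of the 35 log2 fold changes were positive, or 80.0%, against 50.8% of all tested genes, and their median was 0.12, against 0.00 for all tested genes. That direction did not hold with RvD1 replicate 1 left out, where the median was -0.03 with 15 positive and 20 negative values. Untreated replicate 1 stayed in that fit. For the 19 chains with a mean log2 level of at least 5, the median deviation from their own means was 0.08, -0.15 and -0.15 in untreated replicates 1, 2 and 3 (log2). With untreated replicate 1 left out instead, the median log2 fold change of the tested chains was 0.19.

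The spread set how closely each change was bounded. Among the 19 chains with a mean log2 level of at least 5, log2 fold changes lay between -0.16 and 0.37, 17 were positive, and the 95% intervals stayed within 0.620- to 1.95-fold. The standard errors of these 19 had a median of 0.16, against 0.09 for all tested genes above that level. For the 16 chains below it, log2 fold changes lay between -0.73 and 1.13 and the intervals together spanned 0.245- to 4.21-fold, with a median standard error of 0.46. The 2 sets overlapped: Col3a1, at a high level, had a standard error of 0.27, and Col27a1 and Col11a2, at a low level, had 0.19 and 0.22.

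**Figure D1:**
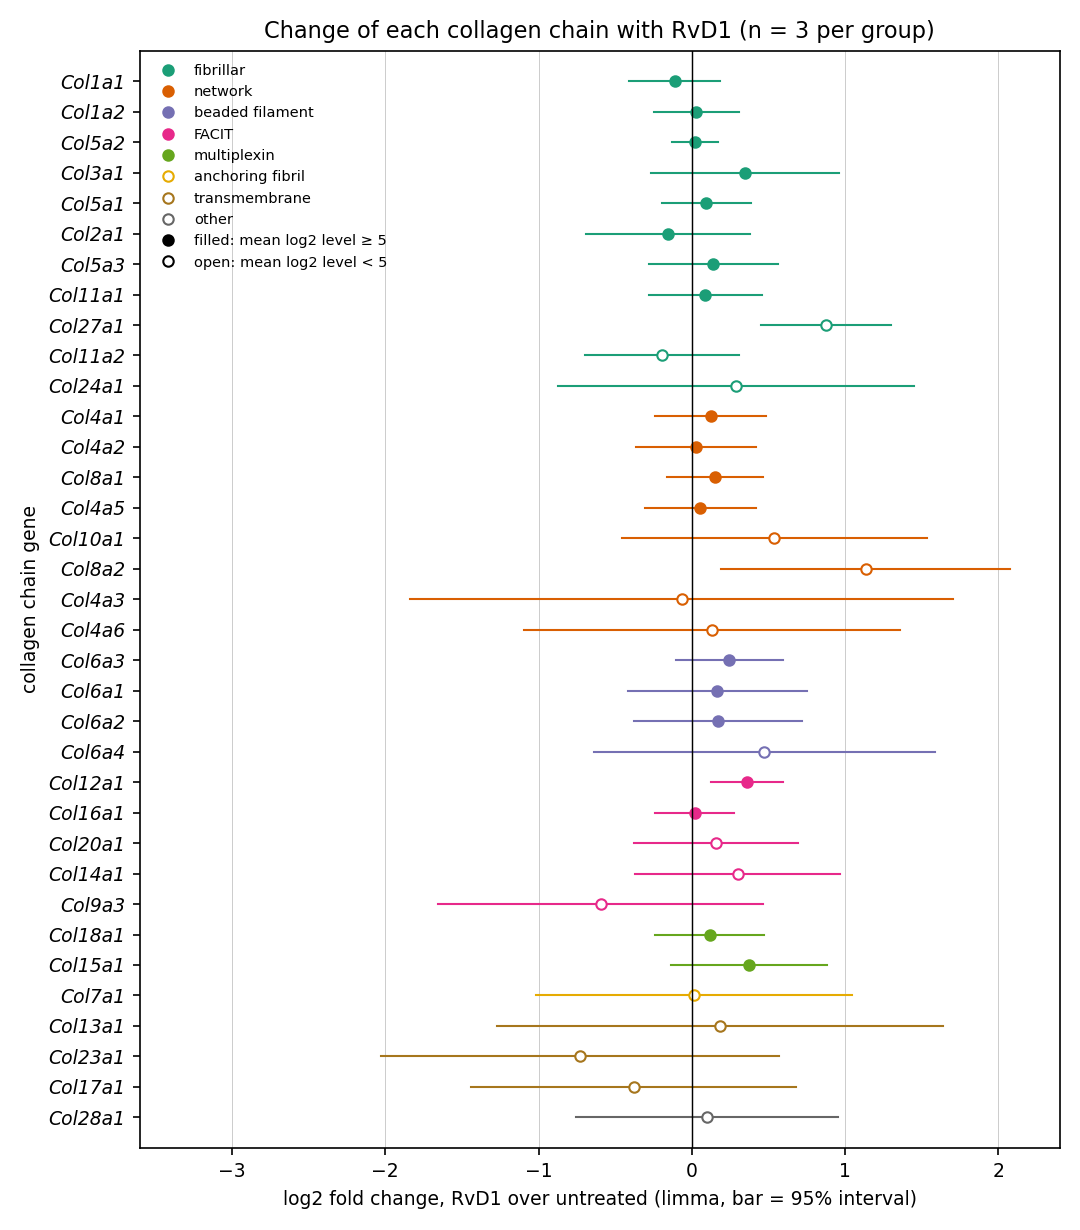
Log2 fold change of the 35 tested collagen chain genes, RvD1 over untreated (x axis, limma, bars 95% intervals, n = 3 per group), ordered by collagen class and then by level. The intervals of Col27a1, Col12a1 and Col8a2 lie above 0, the others include 0, and open symbols mark chains with a mean log2 level under 5.

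Collagen messages were abundant in these cultures. The 43 chains together took 1.01%, 0.666% and 0.711% of normalized reads in RvD1 replicates 1, 2 and 3, against 0.830%, 0.681% and 0.701% in untreated replicates 1, 2 and 3. The groups overlapped, and the highest share was that of RvD1 replicate 1, followed by untreated replicate 1. The chains of type I collagen, the main fibril collagen of bone, skin and scar, held 37.5% of all collagen reads, and the 8 highest genes held 80.6%. Col1a1 and Col1a2 ranked 43 and 46 by mean level in the whole table. Levels lay in a high and a low range, with the largest gap, 1.84 on the log2 scale, between Col15a1 at 7.63 and Col11a1 at 5.80, and 17 chains lay above it. Per kilobase of the longest annotated transcript, mean levels were 3336 normalized reads for Col1a2, 3088 for Col1a1, 1444 for Col5a2, 1159 for Col6a1 and 1070 for Col3a1.

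**Figure D2:**
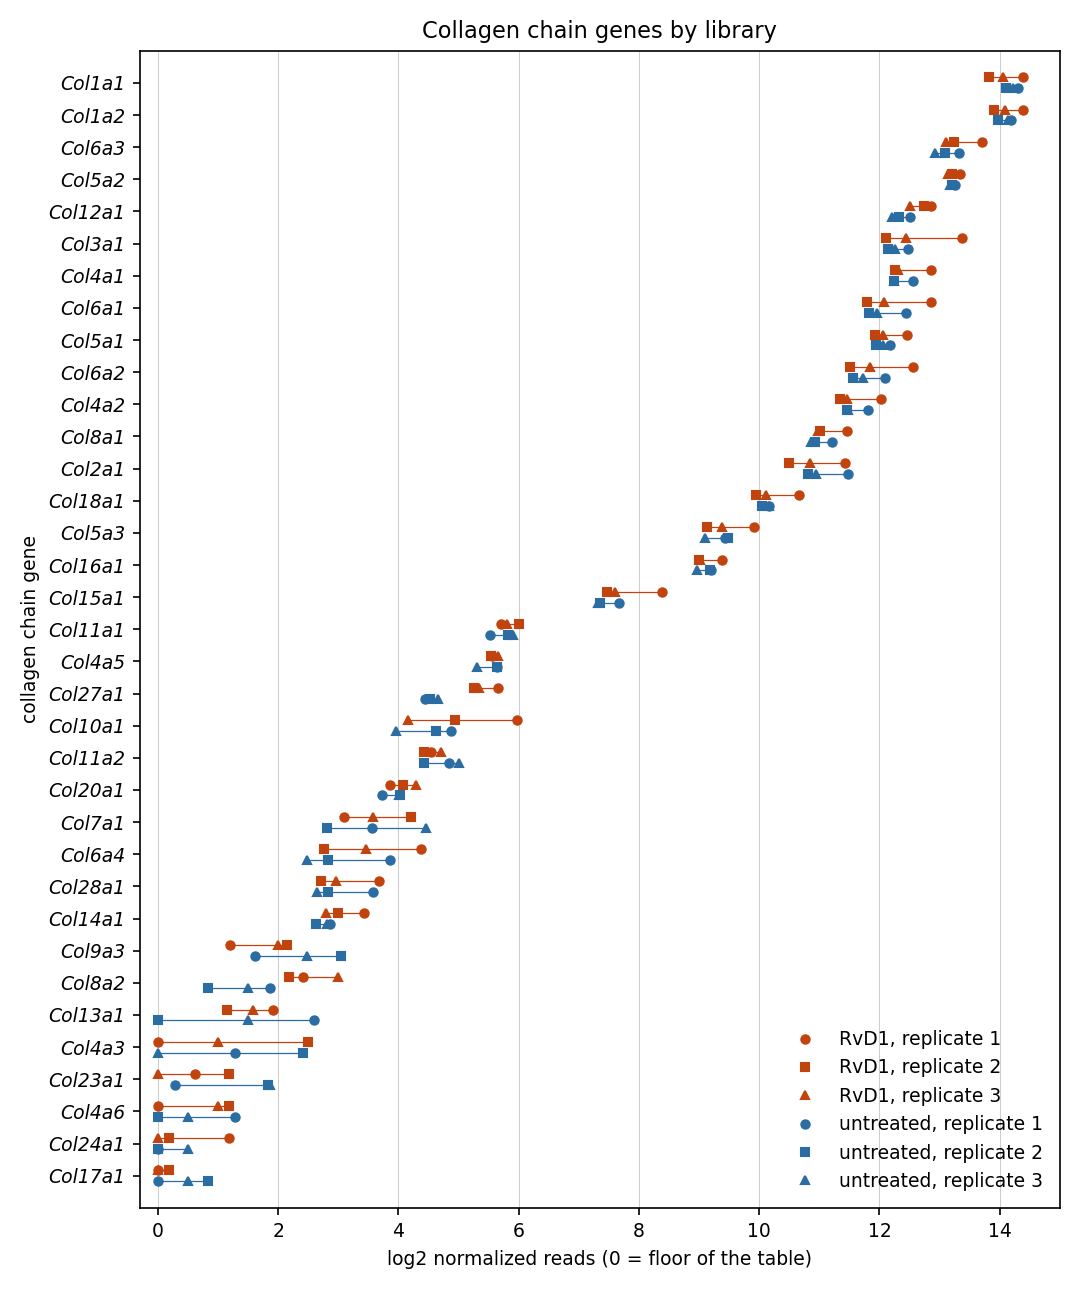
Log2 normalized reads (x axis, 0 is the floor of the table) of the 35 tested collagen chain genes in each of the 3 RvD1 and 3 untreated libraries, ordered by mean level, with lines joining the libraries of a group. RvD1 replicate 1 is the highest of the 6 libraries in 22 of the 35 genes, and Col27a1, Col12a1 and Col8a2 show groups that do not overlap.

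Fibrillar collagens, the 11 genes of types I, II, III, V, XI, XXIV and XXVII, were all tested, with 8 positive and 3 negative log2 fold changes, a median of 0.09 and 0 past the limma test. They made up 58.8%, 59.2% and 61.8% of collagen reads in RvD1 replicates 1, 2 and 3, against 61.0%, 62.8% and 65.0% in untreated replicates 1, 2 and 3, and the groups overlapped. Col1a1, which encodes the alpha 1 chain of type I collagen (chr11:94936224-94953042, plus strand, mm10), stood at 14.39, 13.83 and 14.06 in RvD1 and at 14.30, 14.10 and 14.22 in untreated replicates 1, 2 and 3. The RvD1 libraries held both the highest and the lowest value, and the log2 fold change of -0.11 had a 95% interval of -0.41 to 0.18 (limma adjusted p = 0.685). Col1a2, which encodes the partner alpha 2 chain (chr6:4504814-4541544, plus strand), stood at 14.39, 13.91 and 14.09 in RvD1 and at 14.19, 13.97 and 14.14 in untreated libraries. Its log2 fold change was 0.03 (SE 0.12), within an interval of 0.843- to 1.24-fold.

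Col3a1, the type III chain that mixes with type I in distensible tissues and in early scar, was the fibrillar gene in which a single library stood farthest off. It stood at 13.37, 12.11 and 12.44 in RvD1 replicates 1, 2 and 3, against 12.48, 12.15 and 12.25 in untreated libraries. Only RvD1 replicate 1 was high, and the log2 fold change was 0.35 (SE 0.27, limma adjusted p = 0.521) with it and -0.02 (SE 0.12) without it. Col5a2, a chain of type V collagen, which helps to start fibrils and limits their width, lay at 13.34, 13.21 and 13.15 in RvD1 and at 13.25, 13.20 and 13.18 in untreated libraries. It had the smallest standard error of the tested chains, 0.07, and an interval of 0.915- to 1.13-fold. The 2 other type V chains, Col5a1 and Col5a3, had log2 fold changes of 0.09 (SE 0.13) and 0.14 (SE 0.18).

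Col2a1, the main chain of cartilage collagen, had the most negative value of the chains with a mean level of at least 5. It stood at 11.43, 10.50 and 10.85 in RvD1 and at 11.48, 10.82 and 10.94 in untreated replicates 1, 2 and 3, with a log2 fold change of -0.16 (SE 0.24). In both groups replicate 1 was the highest library. Without RvD1 replicate 1, but with untreated replicate 1 kept, the log2 fold change was -0.41 (SE 0.19, limma adjusted p = 0.264). The usual cartilage partners of type II collagen were lower or at the floor beside it. The highest of them, Col11a1, lay at 5.71, 6.01 and 5.81 in RvD1 and at 5.53, 5.82 and 5.91 in untreated replicates 1, 2 and 3 (log2 fold change 0.09, SE 0.16). Col9a1 was at 0 in every library and Col9a2 at or below 0.28, while Col11a2 lay at 4.55, 4.42 and 4.72 in RvD1 and at 4.84, 4.42 and 5.01 in untreated libraries (log2 fold change -0.20, SE 0.22, limma adjusted p = 0.672). Sox9, the transcription factor that drives Col2a1 in cartilage, stood at 6.49, 6.35 and 6.52 in RvD1 and at 6.55, 6.61 and 6.08 in untreated libraries.

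Col27a1 had the smallest p-value of the family. It encodes a fibrillar chain found in cartilage and other tissues (chr4:63214004-63334991, plus strand, mm10). It stood at 5.65, 5.27 and 5.34 in RvD1 replicates 1, 2 and 3, against 4.45, 4.52 and 4.66 in untreated libraries. All RvD1 libraries lay above all untreated libraries. The mean was 5.42 ± 0.20 in RvD1 and 4.54 ± 0.11 in untreated libraries (SD, n = 3 each), a fold of 1.83 with a 95% interval of 1.37 to 2.46, and it did not pass over all genes (limma adjusted p = 0.0628). These levels stood for about 65.6, 33.9 and 40.8 reads in RvD1 and 17.9, 25.9 and 18 reads in untreated libraries. Without RvD1 replicate 1 the log2 fold change was 0.76 (SE 0.21, limma adjusted p = 0.0902), and once transcript length and GC content were corrected for it was 0.96 (SE 0.17, limma adjusted p = 0.0912). Only with the replicate number as a block did it pass (0.87, SE 0.20, limma adjusted p = 0.0320, or 0.0388 with the block and the correction).

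The stretches just before the RefSeq starts of Col27a1 and Col8a2 are shown because these are the chains with the largest positive values, and no window was found for Col12a1. They are the 250 bases before the RefSeq transcript start on GRCm38.p6, at chr4:63215162-63215411 on the plus strand for Col27a1 and at chr4:126286544-126286793 on the plus strand for Col8a2. The RefSeq start of Col27a1 lies inside the gene as annotated by GENCODE, downstream of the start given above, so its window is not upstream of every annotated transcript. Capitals mark GGGCGG or its reverse complement CCGCCC, the GC box bound by Sp family factors.
Col27a1: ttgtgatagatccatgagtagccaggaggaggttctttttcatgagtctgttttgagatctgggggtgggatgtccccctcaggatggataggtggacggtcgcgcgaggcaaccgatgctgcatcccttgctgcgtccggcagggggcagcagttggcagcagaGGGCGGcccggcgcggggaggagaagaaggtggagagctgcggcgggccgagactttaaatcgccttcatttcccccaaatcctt
Col8a2: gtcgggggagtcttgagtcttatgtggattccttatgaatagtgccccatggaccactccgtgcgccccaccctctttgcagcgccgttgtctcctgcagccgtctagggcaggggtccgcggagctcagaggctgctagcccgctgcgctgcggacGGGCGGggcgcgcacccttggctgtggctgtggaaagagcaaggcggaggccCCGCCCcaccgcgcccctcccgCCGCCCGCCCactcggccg
The Col27a1 window has 59.6% GC and 1 GC box, which begins at position -85 from the start. The Col8a2 window has 70.0% GC and 4 GC boxes, which begin at positions -93, -41, -19 and -15, the last 2 sharing bases. Windows were at hand for 35 collagen genes, some with more than 1 start, giving 38 windows. On either strand, GGGCGG was in 57.9% of these and in 32.7% of all 32851 windows of the same length. CCAAT, the box bound by NF-Y, was in 34.2% of collagen and 33.8% of all windows, and TATAAA, the TATA box, was in 13.2% and 12.4%. ACGTG, the core of the hypoxia response element, was in 13.2% of collagen and 16.6% of all windows, and in neither printed window. These are counts of letters and not of bound sites.

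Network-forming collagens counted 9 genes, of which 8 were tested, with 7 positive values, 1 negative, a median of 0.13 and 0 past the limma test. Col4a1 and Col4a2 encode the chains of the common type IV collagen of basement membranes, the sheets beneath endothelium and epithelium. They lie head to head (chr8:11198423-11312826, minus strand, and chr8:11312805-11449287, plus strand, mm10), and their annotated ends overlap, so reads there cannot be assigned without strand. Col4a1 stood at 12.87, 12.26 and 12.30 in RvD1 and at 12.56, 12.25 and 12.24 in untreated replicates 1, 2 and 3, a log2 fold change of 0.12 (SE 0.16). Col4a2 stood at 12.03, 11.34 and 11.46 in RvD1 and at 11.81, 11.46 and 11.48 in untreated libraries, a log2 fold change of 0.03 (SE 0.17). In both genes replicate 1 was the highest library of each group.

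The other type IV chains, which replace these in specialised membranes such as that of the kidney filter, were low. Col4a5 lay at 5.56, 5.54 and 5.66 in RvD1 and at 5.64, 5.64 and 5.30 in untreated libraries (log2 fold change 0.06, SE 0.16). Its X-linked neighbour Col4a6 lay at 0, 1.18 and 0.99 in RvD1 and at 1.29, 0 and 0.50 in untreated libraries. Col4a3 ranged over 0 to 2.50 in RvD1 and 0 to 2.41 in untreated libraries, and Col4a4 was above 0 in a single library.

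Type VIII collagen is a short-chain network collagen of vessel walls and of the membrane beneath the corneal endothelium. Its chain Col8a1 stood at 11.46, 11.01 and 10.98 in RvD1 and at 11.21, 10.94 and 10.86 in untreated replicates 1, 2 and 3, with a log2 fold change of 0.15 (SE 0.14). Its other chain Col8a2 (chr4:126286793-126314330, plus strand) stood at 2.42, 2.18 and 2.99 in RvD1, against 1.87, 0.82 and 1.50 in untreated libraries. The groups did not overlap, but the values stood for only about 7, 4 and 8 reads in RvD1 and 3, 2 and 2 reads in untreated libraries. The fold was 2.19 with a 95% interval of 1.14 to 4.21 (limma adjusted p = 0.180). Col10a1, the network collagen of hypertrophic cartilage, ranged more widely, at 5.97, 4.94 and 4.16 in RvD1 and 4.87, 4.63 and 3.96 in untreated libraries (log2 fold change 0.54, SE 0.44, limma adjusted p = 0.541). Its log2 fold change was 0.06 without RvD1 replicate 1, 0.97 without RvD1 replicate 3 and 0.27 without untreated replicate 3.

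Beaded filament collagens, the type VI chains, counted 6 genes with 4 tested. All 4 had positive log2 fold changes, with a median of 0.21 and 0 past the limma test. Type VI collagen forms a microfilament mesh next to cells and links them to fibrils. Col6a3, its longest common chain, stood at 13.71, 13.24 and 13.12 in RvD1 and at 13.32, 13.08 and 12.92 in untreated replicates 1, 2 and 3 (log2 fold change 0.25, SE 0.15, limma adjusted p = 0.422), and the groups overlapped. Col6a1 stood at 12.86, 11.79 and 12.08 in RvD1 and at 12.44, 11.83 and 11.96 in untreated libraries (log2 fold change 0.17, SE 0.26). Without RvD1 replicate 1, Col6a3 stood at 0.07 and Col6a1 at -0.14 on the log2 fold change scale. Col6a2, next to Col6a1 on chromosome 10, had a log2 fold change of 0.17 (SE 0.24), and Col6a4, which is not a functional gene in humans, lay below 5 in every library.

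FACIT collagens counted 9 genes with 5 tested, 4 of them positive and 1 negative, with a median of 0.16 and 0 past the limma test. Col12a1 encodes the type XII chain, which decorates type I fibrils in tendon, ligament and other loaded tissue (chr9:79598991-79718831, minus strand, mm10). It stood at 12.86, 12.74 and 12.51 in RvD1, against 12.51, 12.32 and 12.20 in untreated replicates 1, 2 and 3. The lowest RvD1 library and the highest untreated library lay side by side at 12.51, with the RvD1 value just above. Its mean was 12.70 ± 0.18 in RvD1 and 12.34 ± 0.15 in untreated libraries (SD, n = 3 each), a fold of 1.28 with a 95% interval of 1.09 to 1.51, and it did not pass over all genes (limma adjusted p = 0.115). After the correction for length and GC content its log2 fold change was 0.20, against 0.36 without it (limma adjusted p = 0.429). Without RvD1 replicate 1 it was 0.28 (SE 0.10, limma adjusted p = 0.169). Only with the replicate number as a block did Col12a1 pass (SE 0.04, limma adjusted p = 0.00426, or 0.0205 with the block and the correction).

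The other tested FACIT genes were lower in level. Col16a1, a minor collagen of skin and cartilage, had a log2 fold change of 0.02 (SE 0.11) at a level near 9.13. Col9a3, which in cartilage binds to type II fibrils, lay at 1.20, 2.15 and 1.99 in RvD1 and at 1.61, 3.04 and 2.48 in untreated libraries, with overlapping groups (log2 fold change -0.60, SE 0.47, limma adjusted p = 0.525). Col14a1 and Col20a1 stood below 5 in every library, with log2 fold changes of 0.30 (SE 0.29) and 0.16 (SE 0.23).

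**Figure D3:**
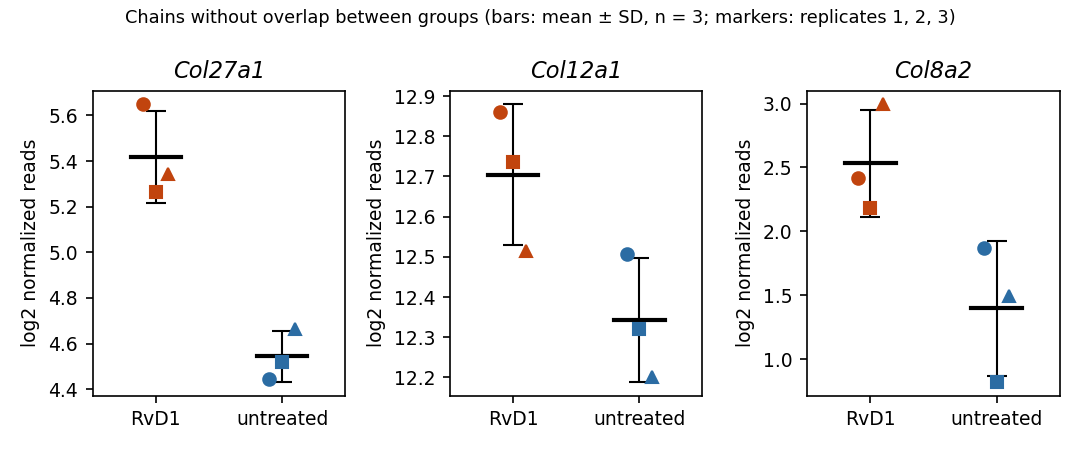
Log2 normalized reads (y axes, each with its own range) of the 3 collagen chains whose groups did not overlap, with 1 point per library and bars for the mean and SD (n = 3 per group). Col27a1 and Col12a1 had limma adjusted p-values of 0.0628 and 0.115, and Col8a2, at a mean of 2.53 in RvD1 and 1.40 in untreated libraries, one of 0.180.

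The multiplexins Col15a1 and Col18a1 are basement membrane collagens, and the C-terminal fragment of Col18a1 is endostatin. Col15a1 stood at 8.39, 7.47 and 7.60 in RvD1 and at 7.67, 7.35 and 7.32 in untreated replicates 1, 2 and 3, and its log2 fold change stood at 0.37 (SE 0.22, limma adjusted p = 0.395), or at 0.09 (SE 0.13) without RvD1 replicate 1. Col18a1 stood at 10.66, 9.95 and 10.11 in RvD1 and at 10.17, 10.04 and 10.16 in untreated libraries (0.12, SE 0.16), and its value without RvD1 replicate 1 was -0.09 (SE 0.07). In both genes RvD1 replicate 1 was the highest of the 6 libraries, and the groups overlapped.

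Of the 4 transmembrane collagens, 3 were tested, with 1 positive and 2 negative values, and the highest of them in level, Col13a1, had a mean of 1.46. Col23a1 lay at 0.61, 1.18 and 0 in RvD1 and at 0.29, 1.82 and 1.87 in untreated libraries (log2 fold change -0.73, SE 0.57, limma adjusted p = 0.525). Col17a1, which anchors the basal cells of skin, lay at 0, 0.18 and 0 in RvD1 and at 0, 0.82 and 0.50 in untreated libraries (log2 fold change -0.38, SE 0.47, limma adjusted p = 0.703). Col7a1, which forms the anchoring fibrils of skin, had a log2 fold change of 0.02 (SE 0.45), and Col28a1 one of 0.10 (SE 0.37). The transmembrane chains stood for about 0 to 5 reads per library, Col7a1 for about 7.9 to 16.4 and Col28a1 for about 4.5 to 16.7. At these levels, differences of the size seen among the libraries of a group could not be resolved.

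The balance between chains of one collagen type is free of any factor that scales a whole library. The ratio of Col1a1 to Col1a2, in normalized reads per kilobase, was 0.899, 0.856 and 0.885 in RvD1 and 0.973, 0.987 and 0.951 in untreated replicates 1, 2 and 3. The mean ratio was 0.880 ± 0.022 in RvD1 and 0.971 ± 0.018 in untreated libraries (SD, n = 3 each), and the groups did not overlap. The exact permutation test, two-sided, gave p = 0.1, the smallest that 3 against 3 libraries allow, or 0.25 adjusted over the 5 ratios computed. The ratio of Col4a1 to Col4a2 did not overlap either, at 1.74, 1.84 and 1.75 in RvD1 and 1.65, 1.69 and 1.65 in untreated libraries, with the same exact p = 0.1 and adjusted p = 0.25. Correcting for length and GC content took the log2 difference of the type I ratio to -0.10, against -0.14 without it, and that of the type IV ratio to 0.06, against 0.10. The groups overlapped in the ratios of Col5a1 to Col5a2 (exact permutation p = 0.7), Col6a1 to Col6a2 (p = 1) and Col6a3 to Col6a1 (p = 0.7). Col6a1 to Col6a2 was the steadiest of these, at 1.45 ± 0.03 in RvD1 and 1.46 ± 0.05 in untreated libraries (SD, n = 3 each).

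RvD1 replicate 1 stood apart from the other 5 libraries in this family. It was the highest of the 6 libraries in 22 of the 35 tested chains, or 62.9%, against 15.3% of all tested genes. Among the 19 chains with a mean level of at least 5 it was the highest in 16, or 84.2%, against 14.6% of all 13176 genes at that level. The median deviation of these 19 chains from their own means over the libraries was 0.42, -0.18 and -0.07 in RvD1 replicates 1, 2 and 3, and 0.08, -0.15 and -0.15 in untreated replicates 1, 2 and 3 (log2). Without RvD1 replicate 1, but with untreated replicate 1 kept, their median log2 fold change was -0.07, with 5 positive and 14 negative values. In that fit 0 of the 35 tested chains passed, where 2.39% of all tested genes did (limma). In that comparison 4 chains were at an unadjusted limma p under 0.05, against 21.8% of all tested genes: Col27a1, Col12a1, Col8a2 (log2 fold change 1.19) and, on the negative side, Col1a1 (-0.26, SE 0.09, limma adjusted p = 0.162).

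The medians of the mesenchymal, skeletal and endothelial marker lists moved with the collagens between libraries, and those of the granulocyte list did not. Single members differed: Dcn was highest in RvD1 replicate 3 (5.72), and Vwf and Sox9 in untreated replicate 2 (8.69 and 6.61). Markers with a mean log2 level under 5 were left out of these medians. Among them, mesenchymal Thy1 and skeletal Comp lay lower in every RvD1 library than in any untreated library. Their log2 fold changes were -1.04 and -1.03 (limma adjusted p = 0.15 and 0.0924). Lum, Ibsp, Tek and Cldn5, also left out, were highest in RvD1 replicate 1. For 10 well expressed mesenchymal markers the median deviation was 0.44, -0.07 and -0.09 in RvD1 replicates 1, 2 and 3, and 0.08, -0.20 and -0.14 in untreated replicates 1, 2 and 3. For 4 skeletal markers it was 0.50, -0.16 and 0.08 in RvD1 and 0.16, -0.25 and -0.32 in untreated replicates 1, 2 and 3. For 6 endothelial markers it was 0.94, -0.31 and 0.07 in RvD1 and -0.01, -0.65 and -0.13 in untreated replicates 1, 2 and 3. Each of these lists was highest in RvD1 replicate 1, as the collagens were. The 8 macrophage markers went the other way, at -0.16, 0.00 and 0.24 in RvD1 and -0.20, -0.11 and 0.17 in untreated replicates 1, 2 and 3, with both replicates numbered 1 lowest in their groups. For 3 granulocyte markers it was -0.59, -0.01 and 0.84 in RvD1 and -0.92, -0.25 and 0.97 in untreated replicates 1, 2 and 3. No marker in these lists passed the limma test between the groups, and the part of other cells in the collagen values was not tested.

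**Figure D4:**
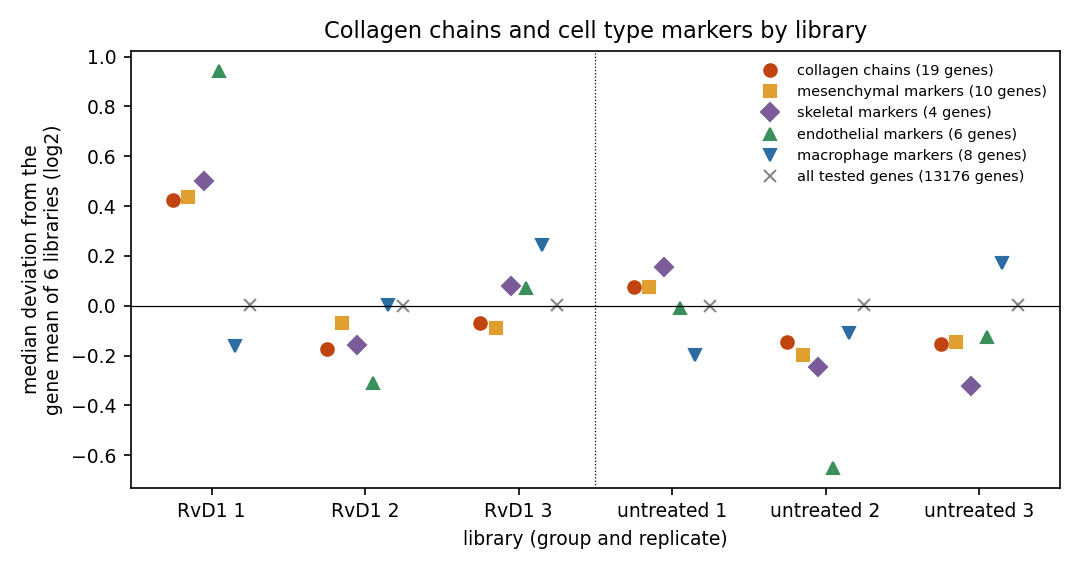
Median deviation of each gene list from the gene means over the 6 libraries (y axis, log2, genes with a mean level of at least 5) in each RvD1 and untreated library (x axis). Collagen chains, mesenchymal, skeletal and endothelial markers are all highest in RvD1 replicate 1, where macrophage markers lie below 0 and all tested genes lie at 0.00.

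Genes that modify, fold, export and crosslink collagen were set beside the chains as a list of 29, all of them tested. Of these 1 rose, 0 fell and 28 did not pass the limma test over all genes, with a median log2 fold change of -0.09 and 10 of 29 values positive. Over all tested genes 1.12% passed, 50.8% of values were positive and the median was 0.00. The gene that rose was Plod2, a lysyl hydroxylase that prepares collagen ends for crosslinking. It stood at 10.46, 10.28 and 10.33 in RvD1, against 10.05, 9.91 and 9.86 in untreated replicates 1, 2 and 3, a fold of 1.34 (95% interval 1.19 to 1.50, limma adjusted p = 0.0413). After the correction for length and GC content it no longer passed (log2 fold change 0.30, limma adjusted p = 0.205). Nor did it pass with a floor of 3, no filter beyond 1 library or no variance trend (limma adjusted p = 0.0509, 0.0664 and 0.199). Plod2 did pass at a mean log2 level of at least 5 and with median or quantile scaling (limma adjusted p = 0.0276, 0.0408 and 0.0496). With the replicate number as a block it passed without and with the correction (limma adjusted p = 0.00453 and 0.0205). It passed without RvD1 replicate 1 (limma adjusted p = 0.0484) but not without RvD1 replicate 2 or 3 (0.146 and 0.129) or untreated replicate 1, 2 or 3 (0.0857, 0.167 and 0.134), with log2 fold changes of 0.37 to 0.47 in these 6 fits. P4ha1, a catalytic subunit of the prolyl hydroxylase that stabilises the triple helix, lay 0.31 higher on the log2 scale without passing (SE 0.06, limma adjusted p = 0.0535). Serpinh1, the collagen chaperone HSP47, had one of -0.14 (SE 0.11), Lox, the lysyl oxidase that starts crosslinks, one of 0.13 (SE 0.09), and Loxl1 one of -0.36 (SE 0.15, limma adjusted p = 0.232). Sec24d, a coat subunit used in procollagen export, had the smallest p on the negative side (-0.18, SE 0.06, limma adjusted p = 0.145). The median deviation of the 26 well expressed genes of this list was 0.14, -0.14 and -0.08 in RvD1 and 0.11, -0.03 and 0.04 in untreated replicates 1, 2 and 3.

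Receptors that bind collagen made a list of 12, of which 11 were tested and 0 passed in limma, with a median log2 fold change of 0.13. At an unadjusted limma p under 0.05 the list held 1 higher gene and 0 lower genes, where 10.3% of all tested genes were higher and 9.65% lower. Ddr2, a receptor kinase activated by fibrillar collagen, stood at 10.79, 10.76 and 10.47 in RvD1 and at 10.56, 10.35 and 10.19 in untreated replicates 1, 2 and 3 (0.31, SE 0.11, limma adjusted p = 0.179). Lair1, an inhibitory collagen receptor of leukocytes, had a log2 fold change of -0.05 (SE 0.07), and Mrc2, an uptake receptor for collagen, one of -0.00 (SE 0.11). Itga11, the alpha 11 integrin of fibroblasts, lay at 10.12, 9.54 and 9.68 in RvD1 and at 9.78, 9.41 and 9.45 in untreated libraries, highest in RvD1 replicate 1 like the chains.

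The collagen genes differ from the average gene in length and base composition. The median longest transcript of the 35 tested chains was 5930 bases and the median GC content 56.1%, against 2759 bases and 49.7% for all tested genes with an annotation. Over the 19 well expressed chains, which share the same libraries, Spearman's rho of the log2 fold change was -0.41 with GC content and 0.01 with length. After the correction for both, the median log2 fold change of the tested chains was 0.16, and 0 chains passed, where 0.194% of all genes did (limma).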

How the data were processed

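The single table deposited by the authors lists 38087 genes by Ensembl identifier. Per the file headers each library has a column called normalized. The deposited values were taken to be log2 normalized reads: they start at 0, and their antilogs add up to between 12.4 and 12.8 M in each library. The submitters' processing notes list TopHat2 2.0.7 and mm10. The counter, annotation release and normalization software are not given in the sources at hand. Low values clustered at multiples of 1 read, which gave the depths stated, but only 38.4% to 51.5% of low values came within 0.02 of whole reads, and a count test was not run.

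The 18899 genes above 0 in at least 3 libraries were tested with limma 3.58.1 in R 4.3.3 (limma-trend, treatment alone, two-sided, Benjamini-Hochberg over all genes, threshold 0.05, 4 residual and 4.62 prior degrees of freedom). Folds near the floor are not reliable in size. Setting values to 0 can shrink them, and depth can create them. By the depth estimate, 1 read stood for 0.764 normalized reads in RvD1 replicate 1, below the floor, and for 1.41 in untreated replicate 3, above it. Groups and replicate numbers came from the sample titles. Chains named by rule were the 8 highest in level, the 3 smallest p-values and the 3 largest fold changes in each direction, and head-to-head pairs with both chains tested. From the assembly and receptor lists these were members past the test and the smallest p in each direction. Other chains and genes were named after their values were seen, to complete a class or a partner. The members, lists and tests were chosen with earlier results of these data known. GENCODE M21 supplied coordinates, transcript lengths and GC content (95.3% of identifiers found), and promoter windows from RefSeq. Splines with 4 degrees of freedom in length and GC content were subtracted from each library for the correction. Only the main limma fit was tried on simulated data, and not the correction, the block, the ratios or the depth estimate. Alternatives were a floor of 3, other filters on low values, quantile and median scaling, no variance trend, the correction, a replicate block and leaving out each library. Tables were read with pandas 2.3.3, numpy 2.4.6 and scipy 1.17.1, and figures drawn with matplotlib 3.10.9.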

Additional observations from a re-analysis of the deposited data

How the results depend on the processing

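The count of 0 collagen chains past the limma test held under the floor of 3, the length and GC correction, both other filters on low values, quantile and median scaling, no variance trend, and each fit without 1 library (0 to 0 chains). Over all genes, 211 calls became 36 with the length and GC correction, 464 at a mean log2 level of at least 5, 12 with no filter beyond 1 library and 1 with the variance trend off. Leaving out 1 library gave 0 to 451 calls. Among assembly and receptor genes the single call became 0 under the floor of 3, the correction, no filter and no trend, 2 at a mean level of at least 5, and 0 to 1 without 1 library. The median log2 fold change of the tested chains lay between -0.03 and 0.22 when 1 library was left out, and the lower value belonged to the fit without RvD1 replicate 1. A fit that leaves 2 libraries in a group takes their spread from all 5 libraries together.

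Of 258 values for 18 chains under 15 alternatives, 234 kept their direction and side of the threshold, 8 were past it only with a replicate block, and 16 changed sign, none of these past the threshold. Col5a2 was at -0.055 under the length and GC correction, with and without the block. With 1 library left out the ranges were -0.26 to 0.020 for Col1a1, -0.10 to 0.14 for Col1a2, -0.033 to 0.064 for Col5a2, -0.018 to 0.61 for Col3a1, -0.071 to 0.23 for Col4a1, -0.14 to 0.39 for Col6a1, -0.18 to 0.16 for Col4a2, -0.056 to 0.11 for Col4a5 and -0.17 to 0.49 for Col4a6. Col27a1 lay between 0.76 and 0.96 in every fit that tested it, with limma adjusted p between 0.0320 and 0.196. Col8a2, Col23a1, Col4a6 and Col17a1 were not tested under the floor of 3, nor 8 of the 18 chains at a mean level of at least 5.

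Whether the replicate numbers pair the samples was not settled. Over 13176 genes, deviations from the group means correlated at 0.301, -0.08 and 0.417 between libraries numbered 1, 2 and 3. RvD1 replicate 1 correlated at -0.383 with untreated replicate 3, and RvD1 replicate 3 at -0.393 with untreated replicate 1. RvD1 replicate 2 correlated best with untreated replicate 3 (0.064). With the replicate number as a block, 1896 genes (10.0%) were called, among them 3 chains, Col6a3 (limma adjusted p = 0.0219), Col27a1 (0.0320) and Col12a1 (0.00426), and 8 assembly and receptor genes. With the block and the correction together these counts were 770 genes (4.15%), 5 chains (Col6a3, Col27a1, Col4a1, Col12a1 and Col6a1) and 5 assembly and receptor genes. The causes of these shifts were not tested.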
